A study of Mus musculus with 31 samples.

Results

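The expression of 10 imprinted genes with fetal roles was followed across mouse liver libraries: Igf2, H19, Dlk1, Meg3, Rian, Mirg, Igf2r, Grb10, Cdkn1c and Peg3. They were taken by name from the 2 expression tables, and all 10 were found, as 10 of 41549 genes in the table of 5-month livers and 10 of 36333 genes in the table of old livers and adenomas. RNA selected for poly(A) was sequenced to compare livers lacking Myc, Mlx or the pair with wild-type livers, and Mlx-deleted adenomas with aged wild-type livers. Myc drives transcription for cell growth, and Mlx is the partner of the glucose-responsive factors MondoA and ChREBP.

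The old set held 5 liver adenomas (MlxKO; labelled Alb_CreERT2 + Mlxloxp/loxp, aged 14 to 17 months) and 5 wild-type livers (WT; C57/B6, aged 17 months), with no fasting time given for these mice. The 5-month set held 5 livers without Mlx and Myc (DKO; Mlxloxp/loxp + Mycloxp/loxp), 4 without Mlx (MlxKO; Mlxloxp/loxp), 6 without Myc (MycKO; Mycloxp/loxp) and 6 WT livers (C57/B6), all from mice fasted for 14 h. The 5-month knockouts carried Cre-ERT2 at the Rosa26 locus, which is active in most cell types, whereas an albumin driver restricts it to hepatocytes in the adenoma mice. Tamoxifen (75 mg/kg, 5 daily doses starting at 28 days of age) was given to every mouse, WT included. Against WT, the loss of a gene cannot be told apart from Cre-ERT2 or strain, and in the adenomas nor from tumour formation. Whether libraries of a group are from different animals is not stated in the labels, and the p-values reflect the spread among these libraries, which may be technical in part.

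Imprinted genes are expressed from 1 parental copy, set by DNA methylation laid down in the germ line. In mouse liver many of them are highly expressed before birth and are shut down in the first weeks of life, and Igf2 and H19 are among those that return in liver tumours. Igf2 encodes a fetal growth factor and is expressed from the paternal copy, H19 is a noncoding RNA of the maternal copy, and both share enhancers whose access is set by a CTCF-bound control region between them. Dlk1, a membrane protein of progenitor cells, is paternally expressed, while its neighbours Meg3, Rian and Mirg are noncoding RNAs of the maternal copy that carry snoRNAs and miRNAs. Igf2r, the receptor that takes IGF2 to the lysosome, Grb10, an adaptor that restrains insulin and IGF receptors, and Cdkn1c, an inhibitor of cyclin-dependent kinases, are maternally expressed in most mouse tissues, and Peg3 encodes a zinc-finger protein of the paternal copy.

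Total counts ran from 34590164 to 37087490 in the adenomas and from 16036626 to 18690029 in old WT livers, and from 18226467 to 28476797 at 5 months. Even numbers made up 81.0 to 83.1% of low counts (1 to 19 reads) in the adenomas, against 42.3 to 44.1% in old WT livers. With adenoma counts halved, the same 5 of these 10 members were called (adjusted p under 0.05) in adenomas against WT. Scaling to library size absorbs such a halving, so this setting cannot show whether the counting difference matters. Depth and even counts both follow the group, so a difference in library preparation or counting cannot be told apart from adenoma against WT. Adenoma 5 is labelled male, but its Xist level of 886.5 CPM (read counts relative to TMM-scaled library size) lay with the 485 to 776 CPM of the 4 adenomas labelled female, whereas the 3 old WT livers labelled male had at most 0.358 CPM. The calls of the 10 members and of the gene lists are also given without it. At 5 months, WT 2, WT 5 and MycKO 5 stood apart on the second principal component. Myc ranged from 0.492 to 2.41 CPM in DKO and from 0.720 to 2.61 CPM in MycKO, against 3.61 to 22.2 CPM in WT. Mlx ranged from 14.7 to 18.6 CPM in DKO and from 15.7 to 20.8 CPM in MlxKO, against 24.5 to 29.0 CPM in WT, and from 19.9 to 29.9 CPM in adenomas, against 31.8 to 43.8 CPM in old WT. The files count whole genes, so transcripts that lack only a deleted part are still counted.

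H19 and Igf2 showed the widest change of the 10 genes: both were near the limit of detection in old WT livers and reached 3660.2 CPM or more in 2 of 5 adenomas. Both lie on the minus strand of chromosome 7 (GRCm38.p6), Igf2 at chr7:142650766-142666816 and H19 at chr7:142575529-142578143, with 72.62 kb between them. Each holds 1 miRNA gene, and these short RNAs are shown because the host transcripts are what changed. Mature miRNAs were not measured here, and the 21 miRNA genes matched for the 10 members had no count in either table. The sequences are from RefSeq (GRCm38.p6), 5′ to 3′, with the seed (bases 2 to 8) in capitals. The first pair lies in H19 and the second in Igf2.
miR-675-5p: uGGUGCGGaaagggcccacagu
miR-675-3p: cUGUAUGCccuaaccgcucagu
miR-483-5p: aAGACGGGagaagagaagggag
miR-483-3p: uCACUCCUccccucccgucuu

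H19 stood at 6157, 77.3, 781, 116 and 6679 CPM in adenomas 1 to 5, against 0.143, 0.174, 0.532, 0.938 and 0.220 CPM in WT 1 to 5. Every adenoma was above every WT liver, by the widest margin in adenomas 1 and 5. H19 rose by 13.03 ± 1.67 on the log2 scale (SE; adjusted p = 0.0013, edgeR quasi-likelihood test with Benjamini-Hochberg adjustment over 13954 genes), the largest fold change of all genes tested. The WT counts were 2, 3, 9, 14 and 3 reads, so the size of the fold rests on few reads, and only 2 of 5 WT libraries reached the count filter's minimum.

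Igf2 stood at 6151, 2.09, 29.4, 4.16 and 3660.2 CPM in adenomas 1 to 5, against 0.573, 0.752, 0.532, 0.737 and 1.10 CPM in WT 1 to 5. Here too every adenoma exceeded every WT liver, but adenomas 2 and 4 did so by a few CPM only. Igf2 rose by 11.61 ± 2.45 (log2, SE; adjusted p = 0.012), the third largest fold change, and its spread among adenomas was the largest of all genes tested, with an SD of 5.21 in log2(CPM + 1). Without adenoma 5 the adjusted p of Igf2 was 0.12 and that of H19 0.030. With that library and the sex term both left out they were 0.012 and 0.0015. Without adenomas 1 and 5, a choice made after their values were seen, Igf2 was 4.20 higher on the log2 scale (adjusted p = 0.071) and H19 9.84 higher (adjusted p = 0.011). With limma-voom the adjusted p was 0.20 for Igf2 and 0.018 for H19, and among the libraries labelled female 0.21 and 0.088. DESeq2 gave no p-value for Igf2.

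**Figure D1:**
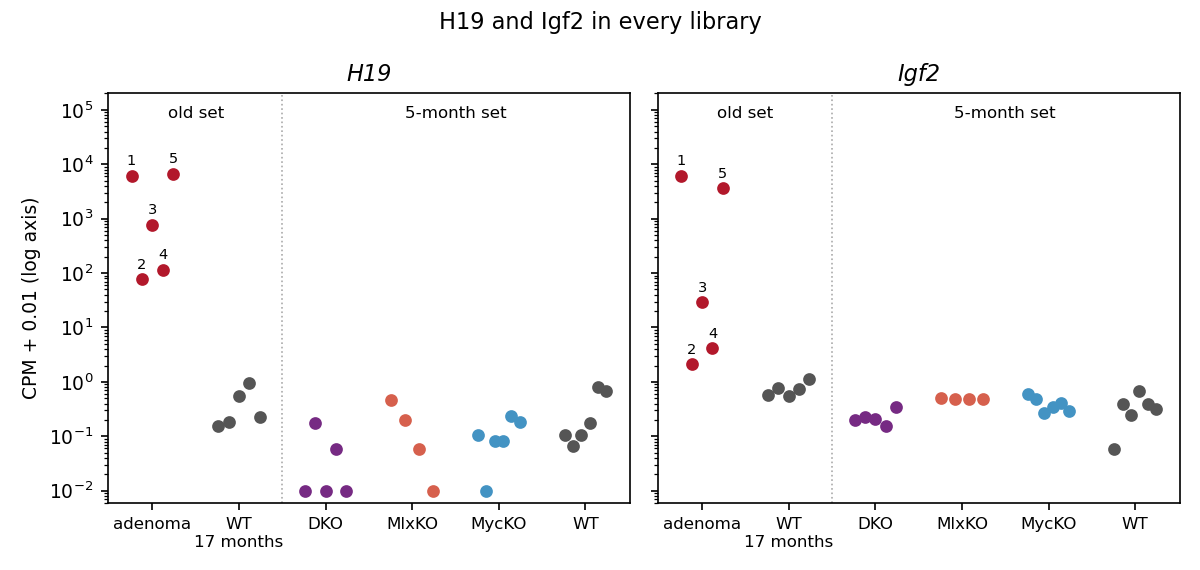
H19 and Igf2 levels in every library as CPM + 0.01 on a log axis. Each point is a library, adenomas are numbered, and the dotted line parts the old set from the 5-month set, which were normalised separately. All 5 adenomas lie above all 5 old WT livers for both genes, with adenomas 1 and 5 at 3660.2 CPM or above.

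Per unit of transcript length, H19 was the more abundant of the pair in each adenoma. In the authors' deposited TPM, H19 reached 6884 and 6955 in adenomas 1 and 5, where it ranked 17th of 17984 and 18th of 17713 genes with a value. Igf2 reached 3154 and 1748 TPM there, at rank 37 and 68. In adenomas 2, 3 and 4, H19 had 97.2, 811 and 113 TPM and Igf2 1.21, 14.0 and 1.86 TPM. The ratio of H19 to Igf2 in TPM was thus 2.18 and 3.98 in adenomas 1 and 5 and 80.6, 58.0 and 60.9 in adenomas 2, 3 and 4, against 0.436 to 2.78 in WT livers, where both genes had at most 15 reads. The antisense transcript Igf2os overlaps Igf2, and no source used here states whether strand was used in counting, so their reads cannot be told apart. Igf2os was counted at 464, 0, 2, 0 and 152 reads in adenomas 1 to 5, against 269310, 104, 1109, 157 and 150801 reads for Igf2.

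Meg3, Rian and Mirg, the maternally expressed noncoding RNAs of chromosome 12, were also higher in adenomas, but the ranking of the adenomas was another one. Meg3 (chr12:109541001-109571726, plus strand) and Rian (chr12:109603808-109661716, plus strand) are 32.08 kb apart, and Mirg (chr12:109729764-109749460, plus strand) follows 68.05 kb downstream of Rian. Gene positions are those of the 5-month set, and in the old set Mirg starts later, at chr12:109734981. Within the 5-month spans, Meg3 holds 2 miRNA genes of RefSeq, Rian 3 and Mirg 14, some of these upstream of the later Mirg start. The only seed that their mature miRNAs share is that of a Mirg pair, miR-453 and miR-496a-5p. They are shown with a Meg3 miRNA, seeds in capitals.
miR-770-5p: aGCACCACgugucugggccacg
miR-453: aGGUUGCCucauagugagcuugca
miR-496a-5p: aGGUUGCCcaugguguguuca

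Meg3 stood at 2.49, 28.1, 8.40, 93.2 and 49.1 CPM in adenomas 1 to 5, against 3.58, 0.868, 0.236, 0.469 and 0.808 CPM in WT 1 to 5. Adenomas 2 to 5 were above every WT liver, and adenoma 1, which had the highest Igf2, was below WT 1. Meg3 rose by 5.45 ± 1.08 (log2, SE; adjusted p = 0.0091 by edgeR), and the adjusted p was 0.071 without adenoma 5, 0.14 with limma-voom and 0.13 among the libraries labelled female. Rian followed the same order of adenomas, with 1.64, 12.3, 4.45, 35.8 and 21.04 CPM in adenomas 1 to 5, against 0.573, 0.231, 0.118, 0.536 and 1.91 CPM in WT 1 to 5. WT 5 overlapped adenoma 1 alone. Rian rose by 5.32 ± 0.98 (log2, SE; adjusted p = 0.0065), and without adenoma 5 by 6.26 (adjusted p = 0.044). That call was lost with limma-voom (adjusted p = 0.095) and among the libraries labelled female (adjusted p = 0.10). The Rian to Meg3 ratio in TPM was 1.39 to 2.39 across the 5 adenomas, against 0.578 to 8.55 in WT livers, where Rian had at most 26 reads.

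Mirg did not pass the count filter, with 6, 10, 4, 75 and 38 reads in adenomas 1 to 5 against 0, 0, 2, 0 and 0 reads in WT 1 to 5. Adenomas 4 and 5 were the highest, as for Meg3 and Rian. Fitted without the filter, Mirg was 4.46 ± 1.30 higher (log2, SE; adjusted p = 0.044), a fold that depends on the prior count because 4 WT libraries were at 0. Dlk1, the paternally expressed gene of the same region (chr12:109452823-109463336, plus strand, 77.67 kb upstream of Meg3), did not pass the filter either. It had 0, 118, 0, 0 and 42 reads in adenomas 1 to 5, against 0, 0, 1, 1 and 3 reads in WT 1 to 5. Only adenomas 2 and 5 exceeded WT, and adenoma 4, the highest in Meg3, had no Dlk1 read. A count of 0 was taken to allow at most 3 reads, or 0.0603 to 0.0795 CPM in an adenoma library, for counting error only. That limit takes reads as independent and may be too low in the adenomas, where most low counts were even. Without the filter the log2 difference was 3.78 ± 1.78 (SE; adjusted p = 0.21), and the authors' deposited table lists Dlk1 with a log2 fold change of −3.25 for WT over adenomas, that is, higher in adenomas (adjusted p = 0.047).

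**Figure D2:**
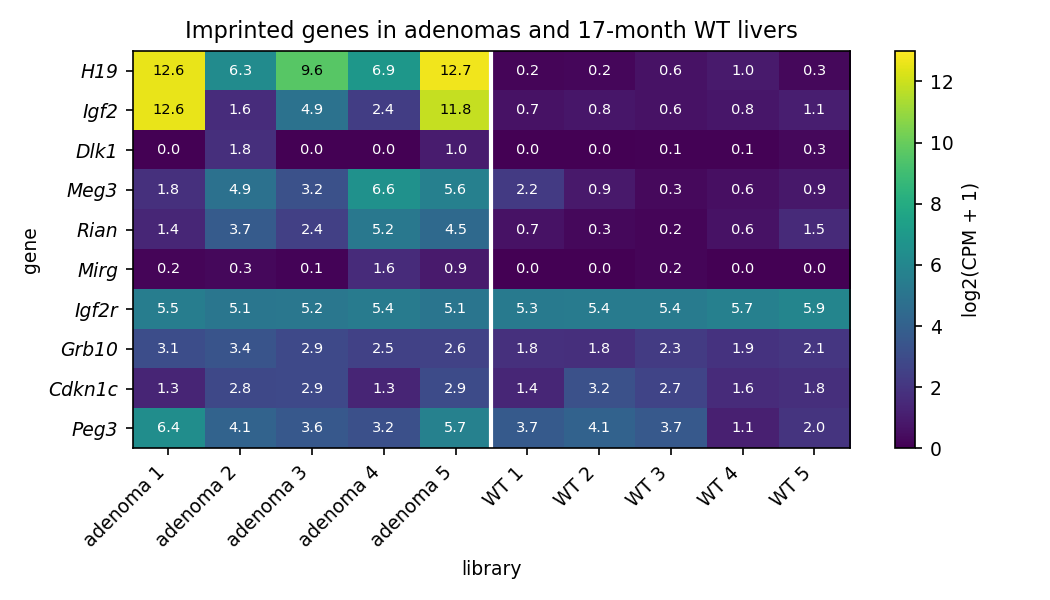
Levels of the 10 genes in the 5 adenomas and the 5 old WT livers as log2(CPM + 1), given by colour and in each cell, with genes in rows and libraries in columns. Adenomas 1 and 5 are highest in H19 and Igf2, adenomas 4 and 5 in Meg3 and Rian, and Igf2r is even across the libraries.

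The Meg3 promoter window of RefSeq (GRCm38.p6), which runs from upstream of the start to just past it (chr12:109540746-109541045, plus strand), is shown because Meg3 and Rian both rose. Capitals mark TATAAA and, overlapping it, TATAAA on the other strand. The forward motif begins 25 bases before the start, and TATAAA on either strand is found in 13.62% of 32851 RefSeq promoter windows of this length.
Meg3 promoter: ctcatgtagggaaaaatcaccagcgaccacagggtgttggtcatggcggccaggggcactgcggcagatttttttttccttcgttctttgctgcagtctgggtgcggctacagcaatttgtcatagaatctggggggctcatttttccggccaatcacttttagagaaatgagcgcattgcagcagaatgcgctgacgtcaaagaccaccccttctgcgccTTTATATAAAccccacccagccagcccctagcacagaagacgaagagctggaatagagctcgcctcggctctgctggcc

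Of the growth-restraining maternal genes, Grb10 was called and Igf2r and Cdkn1c were not. Grb10 (chr11:11930508-12038683, minus strand) stood at 7.49, 9.49, 6.41, 4.80 and 4.98 CPM in adenomas 1 to 5, against 2.51, 2.37, 3.78, 2.68 and 3.23 CPM in WT 1 to 5. Every adenoma was above every WT liver and the spread among adenomas was small beside that of H19 or Igf2. Grb10 rose by 1.06 ± 0.29 (log2, SE; adjusted p = 0.033), a call lost without adenoma 5 (adjusted p = 0.096) and without each of WT 1 to 4 (adjusted p from 0.054 to 0.15), and with limma-voom (0.064). It was also lost with no filter on low counts, without adenomas 1 and 5 together, and among the libraries labelled female.

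Igf2r (chr17:12682406-12769664, minus strand) stood at 43.8, 33.3, 34.8, 40.9 and 32.2 CPM in adenomas 1 to 5, against 39.6, 42.1, 41.7, 50.2 and 58.4 CPM in WT 1 to 5. The groups overlapped, and the adenomas highest in Igf2 were at both ends of the adenoma range. Its log2 difference was −0.30 ± 0.17 (SE; adjusted p = 0.24). With library totals alone in place of TMM the difference was 0.08, a setting that moves the median of all genes to 0.42, from 0.04 with TMM. Cdkn1c (chr7:143458339-143461050, minus strand) stood at 1.51, 5.95, 6.36, 1.51 and 6.72 CPM in adenomas 1 to 5, against 1.65, 8.33, 5.32, 2.08 and 2.42 CPM in WT 1 to 5. Both groups held low and high libraries, and the log2 difference was 0.14 ± 0.56 (SE; adjusted p = 0.89), with a sign that turned under several alternatives.

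Peg3 (chr7:6703892-6730431, minus strand) stood at 82.7, 16.4, 11.2, 7.95 and 50.6 CPM in adenomas 1 to 5, against 11.9, 15.8, 11.6, 1.21 and 2.86 CPM in WT 1 to 5. Adenomas 1 and 5, the highest in Igf2 and H19, were also the highest in Peg3, and the other 3 lay near or within the WT range. The log2 difference was 1.93 ± 0.78 (SE; adjusted p = 0.11), and −0.20 without those 2 adenomas. The authors' deposited table lists Peg3 with a log2 fold change of −1.96 for WT over adenomas (adjusted p = 0.0022).

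**Figure D3:**
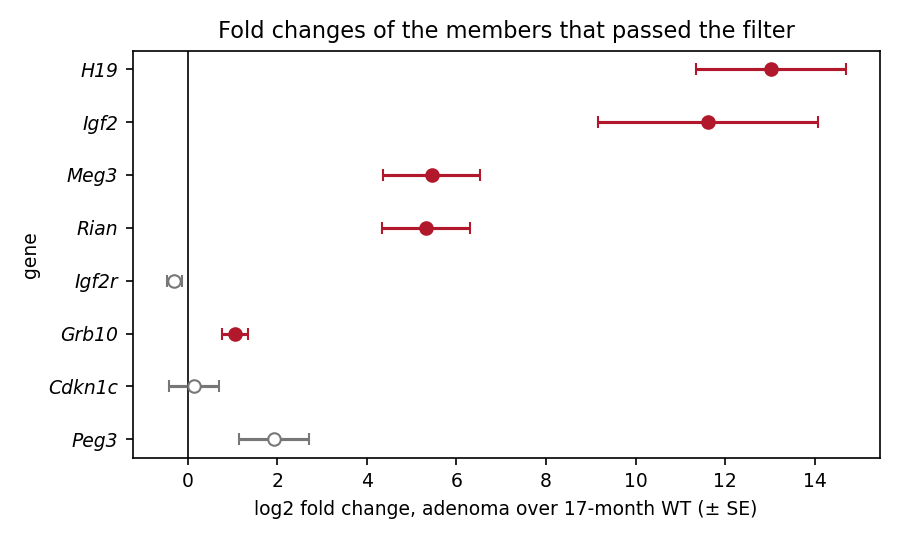
Log2 fold change of adenomas over 17-month WT livers for the 8 members that passed the count filter, with points at the edgeR estimate and bars of 1 SE. Filled points are the 5 genes with an adjusted p under 0.05, H19, Igf2, Meg3, Rian and Grb10, all to the right of 0.

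In all, 5 of the 8 members that passed the filter were called higher in adenomas and none lower, beside 8.74% of all 13954 genes called higher, 7.68% called lower and 16.4% called in either direction. With library totals alone, 88.8% of called genes were higher, against 53.2% with TMM, and the same 5 members were called. Libraries did not overlap for 3 of the 8, beside 18.1% of all genes. The members were chosen with earlier results of these data known, so these shares are no independent support. Igf2 reached the filter's minimum in 5 of 5 WT livers, whereas H19, Rian and Meg3 did so in 2, 3 and 4 and passed through the adenomas. The 2290 genes called in all became 728 without adenoma 5, 704 without WT 2 and 806 without WT 3, and 2823 without adenoma 5 and the sex term. Adenomas 1 to 5 had 4, 6, 5, 5 and 6 of the 8 genes above every WT liver. The share of all genes above every WT liver was not counted for single adenomas, so these counts have no background. H19, Igf2 and Grb10 were above every WT liver in all 5 adenomas.

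As deviations from group means over the 10 old libraries, Igf2 and H19 were each other's closest match among all genes tested (Pearson r = 0.973). Next came Sgpl1 for both (r = 0.961 with Igf2 and 0.954 with H19), then Ankrd6 for Igf2 (r = 0.951) and Smoc2 for H19 (r = 0.949). Lncbate1, Zpr1 and 5033403H07Rik were closest to Meg3 (r = 0.982, 0.976 and 0.963). Farp2, Ndufs7 and Irf9 were closest to Rian (r = 0.966, 0.962 and 0.951). Map1lc3b was closest to Igf2r (r = 0.990), Rgs5 to Grb10 (r = 0.932), Cc2d2a to Cdkn1c (r = 0.970) and Fancg to Peg3 (r = 0.897). These r values are descriptions, and the highest of many genes, and all genes of a library share its depth and dissection. Those of Igf2 and H19 rest mainly on the 5 adenomas. Their SDs in log2(CPM + 1) were 5.21 and 3.04 among adenomas, against 0.179 and 0.325 among WT livers.

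Other imprinted genes did not move as a block in adenomas. Of 59 listed, 38 passed the filter, 5 were called higher and 3 lower, beside 8.74% and 7.68% of all genes, and their median log2 difference was 0.08, beside 0.04 over all genes. Phlda2, a maternally expressed growth restrainer of the placenta, rose by 4.86 ± 0.90 (log2, SE; adjusted p = 0.0068), with 16.2, 3.498, 6.01, 1.46 and 1.21 CPM in adenomas 1 to 5 against 0.143, 0.116, 0.118, 0.0670 and 0.147 CPM in WT 1 to 5. Every adenoma was above every WT liver. Adenoma 1 was the highest, as for Igf2, but adenoma 5, also high in Igf2 and H19, was the lowest of the adenomas. Kcnq1ot1, the noncoding RNA that controls the Phlda2 and Cdkn1c region in mouse, rose by 2.09 ± 0.48 (adjusted p = 0.017). Sgce (2.48 ± 0.72), Cobl (1.35 ± 0.26) and Pon2 (0.53 ± 0.15) were the others called higher. Slc22a3, a cation transporter next to Igf2r, fell by 1.998 on the log2 scale (SE 0.60, adjusted p = 0.045), and Tssc4 (−0.88 ± 0.20) and Trappc9 (−0.58 ± 0.15) were the others called lower. Without adenoma 5, 2 were called higher (Phlda2 and Pon2) and 0 lower, and with the sex term left out as well 5 and 3. Without WT 2, and likewise without WT 3, 2 were called higher and 0 lower. Phlda2 alone among the 8 was called with each of the 10 libraries left out in turn. It had 1 to 2 reads per WT library, 9 in all, so the size of its fold rests on few reads. No WT library reached the count filter's minimum, so Phlda2 passed through the adenomas.

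Of 20 other genes of fetal liver and liver tumours, 14 passed the filter, 6 were called higher and none lower, beside 8.74% of all genes called higher. These were Tspan8 (log2 4.92 ± 0.74), Ly6d (3.81 ± 1.09), Scd2 (3.79 ± 0.65), Golm1 (2.62 ± 0.34), Sox4 (2.60 ± 0.53) and Cd24a (1.56 ± 0.42). The median log2 difference of the 14 was 2.16, beside 0.04 over all genes. The list was chosen with earlier results of these data known, so its share and median are no independent support. Without adenoma 5, 2 were called, Tspan8 (adjusted p = 0.048) and Golm1 (adjusted p = 0.018). Among 19 genes of the IGF axis, all tested, Igfbp1, a secreted IGF-binding protein of liver, rose by 2.53 ± 0.34 (adjusted p = 0.0017). Igfbp5 fell by 2.83 (SE 0.59, adjusted p = 0.012) and Akt2 by 0.50 (SE 0.15, adjusted p = 0.047). Of all genes 16.4% were called, so 3 of 19 is near the background. Igfbp1 alone was called without adenoma 5 (adjusted p = 0.019). Of 20 regulators of imprinting and of the shutdown after birth, 17 were tested and 2 rose, a share near the 8.74% of all genes. They were Zfp57, the zinc-finger protein that maintains methylation of imprinted regions (2.02 ± 0.56, adjusted p = 0.035), and its partner Trim28 (0.56 ± 0.16, adjusted p = 0.040), and neither was called without adenoma 5, WT 2 or WT 3.

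Markers of several cell types differed beside these genes. The summed level of 8 hepatocyte markers was 20490 to 27730 CPM in adenomas, against 94951 to 139175 CPM in WT, with 3 of 8 markers called lower. These were Alb (log2 −3.81), Fabp1 (−3.63) and Hpd (−1.30), and Hpd kept its call in 2 of 10 fits with 1 library left out. A sum is ruled by the most abundant genes, and the median log2 difference of the 8 markers was −0.89. Cholangiocyte markers (7 genes, 3 called higher, 1 of them Tspan8) summed to 678, 642, 355, 65.6 and 605 CPM in adenomas 1 to 5, against 49.3 to 63.4 CPM in WT. Stellate cell and fibroblast markers (10 genes, 4 called higher) summed to 120 to 635 CPM in adenomas, against 123 to 263 CPM in WT. T and NK cell markers (8 genes, 2 of the 6 tested called higher) summed to 6.15 to 26.9 CPM in adenomas, against 2.35 to 3.84 CPM in WT. Kupffer cell and macrophage markers (8 genes, none called) summed to 127 to 1465 CPM in adenomas, against 149 to 456 CPM in WT. Sinusoidal endothelial (10 genes), B cell (5), mesothelial (5) and erythroid (6) lists had none called, and smooth muscle and pericyte markers (5) had 1 called higher. Without adenoma 5, 2 hepatocyte markers were called lower, and 2 cholangiocyte and 1 stellate cell marker higher. In the T and NK cell list 1 marker was at 0 in all 10 libraries, and no other list had such a marker. The part of these cells in the imprinted gene levels was not tested, and in bulk tissue fewer cells of a type cannot be told apart from less RNA per cell.

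At 5 months Igf2, H19, Dlk1 and Mirg were near the limit of detection in every genotype. Igf2 had 3 to 6 reads per library in DKO, 9 to 12 in MlxKO and 5 to 12 in MycKO, against 1 to 12 in WT. H19 had 0, 3, 0, 1 and 0 reads in DKO 1 to 5, 11, 4, 1 and 0 in MlxKO 1 to 4, and 0 to 5 in MycKO, against 2, 1, 2, 3, 16 and 13 in WT 1 to 6. Dlk1 had at most 2 reads in any library, and none in WT. Mirg had at most 5 reads in any library, and none in DKO, where a count of 0 allows 0.0978 to 0.164 CPM. H19 thus had at most 16 reads in any 5-month library and at least 3845 in any adenoma, although the 2 tables were normalised separately and no test crosses them.

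H19, Dlk1 and Mirg did not pass the 5-month count filter, and 7 of the 10 members were tested in each comparison. Igf2 passed with 4 of 21 libraries over the minimum, 2 MlxKO, 1 MycKO and 1 WT. No member was called in any of the 6 comparisons by edgeR. Of all 13397 genes, 0.0896% were called in MycKO against WT, 1.69% in MlxKO against WT, 18.5% in DKO against WT, 11.9% in DKO against MycKO, 0.0373% in DKO against MlxKO and 0% in the test for a departure from additive Myc and Mlx effects. With an unadjusted p under 0.05, 0 members passed in MycKO against WT, 1 in MlxKO against WT, 4 in DKO against WT, 2 in DKO against MycKO, 1 in DKO against MlxKO and 1 in the Myc by Mlx interaction. The share of all genes under this unadjusted threshold was not counted and is at least as large as the adjusted share. These member counts thus have no background. DESeq2 called 1 member in DKO against WT and 1 in DKO against MycKO, Meg3 in both. With library totals alone, 63.6% of genes called in DKO against WT were higher, against 41.0% with TMM, and again no member was called. With 1 library left out, the genes called in DKO against WT (2475 with all) ran from 1218 without WT 2 to 3195 without WT 6, with 1468 without DKO 4 and 1597 without DKO 5. Those called in MlxKO against WT (227 with all) ran from 45 without MlxKO 4 to 1055 without WT 6, with 75 and 69 without MlxKO 2 and 3, 149 and 145 without MycKO 3 and 4, and 92 and 137 without WT 2 and 5. Those in MycKO against WT (12 with all) ran from 2 to 25, in DKO against MycKO (1592) from 892 to 2128, and in DKO against MlxKO (5) from 1 to 16.

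Meg3 stood at 5.14, 6.67, 4.66, 0.834 and 5.96 CPM in DKO 1 to 5 and at 0.704, 3.27, 1.05 and 3.74 CPM in MlxKO 1 to 4. It ranged from 0.810 to 2.56 CPM in MycKO (median 1.90), against 0.244 to 4.92 CPM in WT (median 1.60). All DKO libraries but DKO 4 were above every MycKO library, while WT overlapped both. The log2 difference was 1.58 ± 0.64 for DKO against WT (SE; adjusted p = 0.083) and 1.60 ± 0.60 for DKO against MycKO (adjusted p = 0.082). Without DKO 4 the second had an adjusted p of 0.04997, and DESeq2 gave adjusted p = 0.036 and 0.046 for the pair.

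Rian stood at 1.25, 1.37, 1.92, 0.785 and 2.52 CPM in DKO 1 to 5 and at 0.207, 1.17, 0.285 and 1.495 CPM in MlxKO 1 to 4. It ranged from 0.253 to 0.932 CPM in MycKO (median 0.603), against 0 to 1.45 CPM in WT (median 0.455). DKO was the highest group, with overlap. The log2 difference of DKO against WT was 1.39 ± 0.64 (SE; adjusted p = 0.13), and the authors' deposited table lists Rian with a log2 fold change of −1.52 for WT over DKO (adjusted p = 0.038).

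Peg3 stood at 37.9, 22.7, 29.1, 33.6 and 38.2 CPM in DKO 1 to 5 and at 26.2, 38.5, 21.3 and 24.1 CPM in MlxKO 1 to 4. It ranged from 2.52 to 34.2 CPM in MycKO (median 22.004), against 4.89 to 25.6 CPM in WT (median 12.2). The lowest libraries were MycKO 5, WT 2 and WT 5, the 3 that stood apart on the second principal component, and their part was not tested beyond leaving them out. The log2 difference of DKO against WT was 1.24 ± 0.48 (SE; adjusted p = 0.074) with all libraries and 0.68 without these 3 (adjusted p = 0.15). The authors' deposited table lists Peg3 with a log2 fold change of −1.22 for WT over DKO (adjusted p = 0.016).

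Igf2r stood at 40.0, 39.5, 37.7, 40.5 and 39.6 CPM in DKO 1 to 5 and at 41.5, 37.8, 41.5 and 45.1 CPM in MlxKO 1 to 4. It ranged from 21.6 to 37.3 CPM in MycKO (median 28.6), against 18.4 to 38.2 CPM in WT (median 28.5). The 2 groups without Mlx were thus narrow and high, and no DKO library overlapped a MycKO library, beside 11.2% of all genes without overlap in that comparison. The log2 difference was 0.36 ± 0.15 for DKO against WT (SE; adjusted p = 0.092), 0.43 ± 0.16 for MlxKO against WT (adjusted p = 0.13) and 0.33 ± 0.15 for DKO against MycKO (adjusted p = 0.16). DKO and MlxKO held males only, while MycKO and WT held 2 females each. Among males the difference of DKO against MycKO was 0.44 (adjusted p = 0.044) and that of DKO against WT 0.26 (adjusted p = 0.23). DKO against WT without a sex term gave 0.45 (adjusted p = 0.048). The DKO and MlxKO comparisons with WT share the WT libraries and are not independent.

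**Figure D4:**
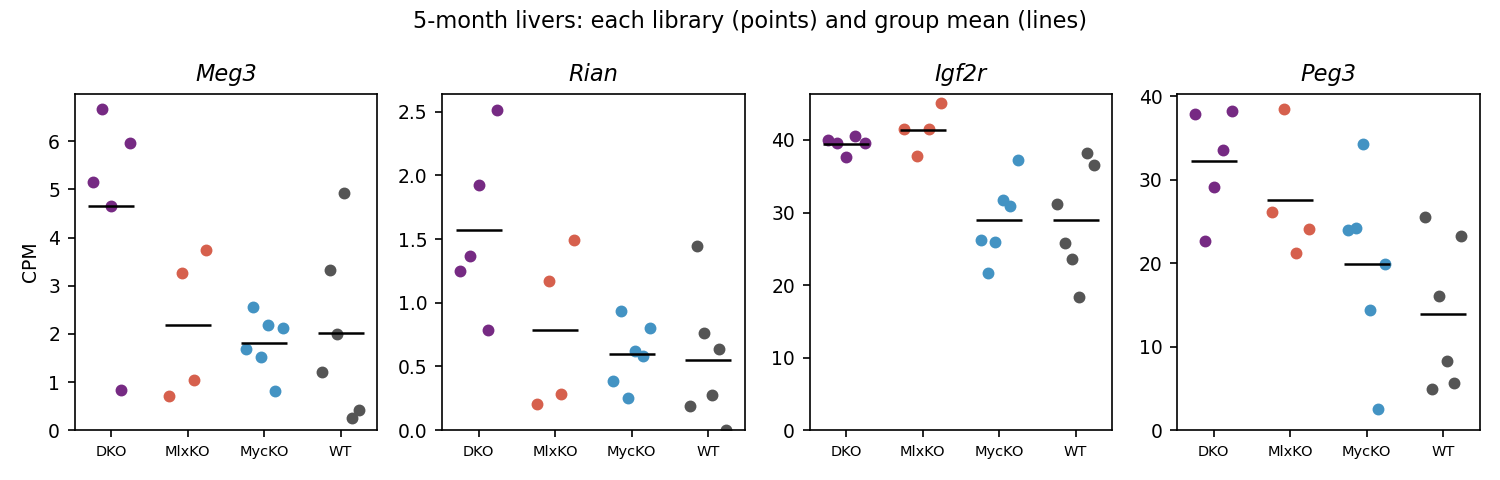
Levels of Meg3, Rian, Igf2r and Peg3 in CPM in the 5-month livers, with a point for each library and a line at the group mean. DKO has the highest mean for Meg3, Rian and Peg3 and lies with MlxKO for Igf2r, and the WT range overlaps the DKO range in each panel.

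The promoter window of Igf2r in RefSeq (chr17:12769657-12769956, GRCm38.p6, minus strand) is shown because CACGTG is the letter sequence bound by Myc and Mlx family dimers. CACGTG, which reads the same on both strands, is found there 2 times, in capitals, beginning 48 and 7 bases before the start. It is found in 7.15% of the 32851 windows, and in none of the other 12 windows matched for 8 of the 10 members. A match is a description of the letters only.
Igf2r promoter: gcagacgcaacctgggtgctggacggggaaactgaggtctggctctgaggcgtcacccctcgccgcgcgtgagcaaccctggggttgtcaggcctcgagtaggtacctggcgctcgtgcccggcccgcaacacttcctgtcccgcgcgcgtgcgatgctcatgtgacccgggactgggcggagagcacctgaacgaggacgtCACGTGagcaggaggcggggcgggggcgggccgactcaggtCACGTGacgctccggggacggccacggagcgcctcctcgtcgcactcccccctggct

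Igf2, at 0.147 to 0.328 CPM in DKO, did not overlap MlxKO at 0.467 to 0.497 CPM, and lay within the range of WT at 0.0480 to 0.664 CPM. The log2 difference of DKO against MlxKO was −1.15 ± 0.44 (SE; adjusted p = 0.68), and it rested on 23 reads in all DKO libraries and 41 in all MlxKO libraries. The interaction term was −1.34 ± 0.58 (adjusted p = 1.0). Grb10, at 2.50 to 2.94 CPM in DKO, did not overlap MlxKO at 1.17 to 2.38 CPM either, with a log2 difference of 0.55 ± 0.31 (adjusted p = 0.92), and 4.51% of all genes had no overlap between these groups. Against WT, at 1.11 to 3.41 CPM, the Grb10 difference of DKO was 0.22 ± 0.29 (adjusted p = 0.61). Cdkn1c, at 0.881 to 1.42 CPM in DKO and 0.993 to 2.58 CPM in WT, differed by −0.54 ± 0.33 (adjusted p = 0.25). H19, fitted without the filter, was −3.10 ± 1.01 in DKO against WT (adjusted p = 0.053). WT 5 and WT 6 held 16 and 13 of the 37 WT reads. The authors' deposited table lists H19 with a log2 fold change of 2.82 for WT over DKO (adjusted p = 0.032).

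Among other imprinted genes at 5 months, 35 of 59 passed the filter. In DKO against WT 4 were called higher and 3 lower, and 7 of 35 is near the 18.5% of all genes called there. The median log2 difference was 0.12, beside −0.02 over all genes. Airn, the paternally expressed antisense RNA of the Igf2r region, was higher by 2.37 ± 0.55 (adjusted p = 0.0074), at 0.278 to 1.03 CPM in DKO against 0 to 0.334 CPM in WT. Its neighbour Slc22a3 was higher by 1.32 ± 0.44 (adjusted p = 0.041), at 8.06 to 17.5 CPM in DKO against 1.56 to 7.34 CPM in WT, the opposite direction to that in adenomas, which were compared with other WT livers. Airn overlaps Igf2r on the other strand, and without strand-specific counting their reads cannot be told apart. Pon3 and Blcap were the others called higher, and Snrpn, Commd1 and H13 lower. Airn, Blcap and H13 were called with each of the 21 libraries left out in turn, and the other 4 lost the call without at least 1 library, Slc22a3 in 9 of 21 fits. H13 was also lower in MlxKO against WT (−0.61 ± 0.13, adjusted p = 0.021), the 1 gene of the list called there, a call lost without MlxKO 2, 3 or 4 or WT 2, and none was called in MycKO against WT.

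Of 12 tested genes of fetal liver and tumours, Cd24a was higher in DKO than in WT (1.31 ± 0.34, adjusted p = 0.013), and Igf2bp2, an RNA-binding protein that binds Igf2 transcripts, was lower in DKO (−1.58 ± 0.37, adjusted p = 0.0071) and in MlxKO (−1.98 ± 0.41, adjusted p = 0.019; lost without MlxKO 2, 3 or 4). None of 19 IGF axis genes was called in DKO, MlxKO or MycKO against WT. Of 15 tested regulators of imprinting, Arid4a (0.71 ± 0.21), Smchd1 (0.56 ± 0.16) and Ctcf (0.34 ± 0.11) rose in DKO against WT, beside 18.5% of all genes called there in either direction, and none of the 3 was called without WT 2. In the same comparison 5 of 8 Kupffer cell and macrophage markers fell, with sums of 112 to 213 CPM in DKO against 143 to 392 CPM in WT. With 1 library left out, 3 to 6 of these markers were called lower. Erythroid markers fell in 5 of 5 tested, with sums of 182 to 544 CPM in DKO against 255 to 2084 CPM in WT. The highest WT sum was that of WT 2. None of the 5 erythroid calls was kept without WT 2, nor without DKO 1, 2 or 4. Of the other lists, 2 of 8 hepatocyte markers and 1 of 5 B cell markers fell, 2 of 10 stellate cell and 1 of 10 sinusoidal endothelial markers rose, and of 6 T and NK cell markers 1 rose and 1 fell. Without WT 2, only Lrat (stellate cell) and Cd8a (T and NK cell) among the markers of these other lists kept the call. Cholangiocyte, mesothelial and smooth muscle markers had none called. The part of these cells in the results was not tested. Over the 21 libraries, as deviations from group means, the genes most like Igf2r were Klf12, Atp13a3 and Hipk2 (Pearson r = 0.961, 0.946 and 0.943), those most like Peg3 Braf and Pi4ka (r = 0.909 and 0.908), and that most like Meg3 Ints1 (r = 0.798). None of these was a member.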

How the data were processed

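Poly(A) RNA-seq counts of 5-month livers and of adenomas with old livers came as 2 tables. The authors deposited gene counts for each library, with no normalisation stated in the file headers. The authors also deposited TPM for each library, used here for levels between genes. The log2 fold changes in the authors' deposited tables run first-named over second-named group, and the p-values beside them are the authors' adjusted ones, used only where named. The build is GRCm38.p6, per the submitters' processing notes, while aligner, counter and strand setting are not known from the labels or headers. Another 42 and 20 normalised columns were not used.

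Genes were filtered with filterByExpr (minimum count 10), scaled by TMM and tested in each table separately with edgeR 4.0.16 (R 4.3.3; quasi-likelihood test, group and labelled sex as terms, Benjamini-Hochberg adjustment over all genes tested, threshold 0.05). Fold changes come from this fit and can differ from ratios of mean CPM. SE is the log2 fold change divided by the square root of F. The fit was tested on simulated data. Common biological variation was 0.261 at 5 months and 0.385 in the old set. Alternatives used limma 3.58.1, DESeq2 1.42.0, other filters, scalings, covariates and samples. All 10 members are named, with up to 8 called genes per list by size of change, mainly for the comparisons with WT. The genes most alike in pattern (deviations of log2(CPM + 1) from group means) are named too. Members and lists were chosen with earlier results of these data known. Limits for a count of 0 are 3 counts, take reads as independent and cover counting error only. Sequences are from RefSeq tables, which matched 8 of the 10 members for promoters.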

Additional observations from a re-analysis of the deposited data

Results flagged for a closer look

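In 17-month WT livers, Meg3 in WT 1 stood at 3.584 CPM, far above the next library at 0.868 CPM, and Rian in WT 5 stood at 1.909 CPM, far above the next at 0.573 CPM. In each case the gap to the nearest library was a large share of the whole range of the group. These were 2 of 44 groups examined, and chance alone marks about 1 in 20 groups, or 2.2 here. Neither library was high in the other gene to the same degree: Rian in WT 1 was 0.573 CPM and Meg3 in WT 5 was 0.808 CPM. Without WT 1 the log2 difference of Meg3 between adenomas and WT was 6.05 (adjusted p = 0.012), and without WT 5 that of Rian was 5.78 (adjusted p = 0.0094).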

How the results depend on the processing

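In adenomas against WT, 5 members were called. The count was 3 without adenomas 1 and 5, 0 among libraries labelled female, 1 with limma-voom (H19) and 2 to 5 with 1 library left out, the 2 (H19 and Rian) without adenoma 5. Without adenoma 5 and the sex term it was 5. With no filter on low counts it was also 5, with Mirg in place of Grb10. Cdkn1c turned to −0.018 without adenoma 5 and the sex term, −0.56 without adenomas 1 and 5, −0.85 among labelled females and −0.15 with limma-voom, and ran from −0.80 to 0.58 with 1 library left out. Igf2r turned to 0.076 with library totals only, and Peg3 to −0.20 without adenomas 1 and 5. In DKO against MycKO no member was called, but 1 with DESeq2 (Meg3), 1 among males (Igf2r) and 0 to 1 with 1 library left out (Meg3, without DKO 4). In DKO against WT none was called, but 1 with DESeq2 (Meg3), 2 with limma-voom (Rian, Peg3), 1 without the sex term (Igf2r) and 0 to 1 with 1 library left out (H19 without MlxKO 2, 3 or 4; Peg3 without MycKO 5, WT 1 or WT 6; Igf2r without WT 5). Without WT 2, WT 5 and MycKO 5 together, 0 members were called at 5 months, and of all genes 1298 were called in DKO against WT, where 2475 were with all libraries, and 82 in MlxKO against WT, where 227 were. Among labelled females 165 genes were called in adenomas, where 2290 were in all. Leaving out adenomas 1 and 5, or WT 2, WT 5 and MycKO 5, or adenoma 5 with the sex term were choices made after seeing the data. The cause of these changes was not tested. No paired analysis was possible because the labels carry no replicate numbers that pair libraries across groups. Depth limits Igf2, H19, Dlk1 and Mirg in non-tumour livers, where a difference may not be detectable.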
